A study of Mus musculus with 8 samples.

Results

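The 36 genes described here encode proteins that carry a cell through mitosis (26 genes) or copy its DNA (10 genes). They were chosen by name, with earlier results of these data known. Each was read through the array probe sets that carry its symbol and no other. Where several such probe sets existed, the one with the highest mean over the 8 arrays stood for the gene. A probe set of this kind was found for 35 of the 36 genes and not for Ccnb1. Of these, 28 genes (19 mitotic and 9 replication) reached the array's median signal on at least 2 of the 8 arrays and were tested, among 13854 genes tested in all.

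The study instilled lungs of male ICR mice, an outbred stock, 5 to 6 weeks old by the sample labels, through the trachea. Solvent mice received PF68 (Pluronic F-68), the surfactant in which the nanotubes were dispersed. Treated mice received 0.5 mg of single-walled carbon nanotubes (SWCNT) per mouse in 50 µl of 0.1% PF68, and right lung lobe 1 was taken on day 1 or day 7. The groups were thus PF68 day 1, SWCNT day 1, PF68 day 7 and SWCNT day 7, with 2 arrays each. All 4 groups went through pentobarbital anaesthesia, a neck incision to expose the trachea and an instillation, and no uninstilled lung was analysed here. Both arrays of a group are titled as biological replicates, with no animal named for either, so the p-values below rest on array-to-array spread that could be technical.

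Dividing cells copy their DNA in S phase and separate the copies in mitosis. Replication starts from origins loaded with the MCM helicase, and the ribonucleotide reductase subunits supply deoxynucleotides. Mitosis is driven by Cdk1 with its cyclins. Aurora and Polo kinases build the spindle, the checkpoint kinases hold anaphase back, and the anaphase-promoting complex with Cdc20 releases it. The 2 sets differ in timing: transcripts of mitotic genes are made mainly in late S and G2 phase, whereas replication genes are switched on by E2F factors as cells enter S phase, and several replication proteins also serve DNA repair in resting cells. In an adult lung most cells are at rest, and transcripts of these genes come from the few that divide, among them macrophages, lymphocytes, endothelium and alveolar type 2 cells.

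The start regions of the 2 sets differed in which of 3 motifs they held. RefSeq windows of 300 bases (250 before the transcript start and 50 after it, build GRCm38.p6) were found for 31 of the 36 members (22 mitotic and 9 replication). Prc1, Ect2 and Mcm7 have 2 windows each, and those of Prc1 and Ect2 overlap almost wholly. They were searched on both strands for TTTGAA, the cell cycle genes homology region (CHR) of many mitotic promoters, for CCAAT, the box bound by NF-Y, and for the E2F letters TTTCGCGC, TTTCCCGC, TTTGCCGC and TTTGGCGC. TTTGAA stood in 19 of 24 mitotic windows (79.2%) and in 1 of 10 replication windows, that of Mcm2, against 17.9% of all 32851 windows. The E2F letters stood in 1 of 24 mitotic windows (4.17%), that of Cdk1, and in 4 of 10 replication windows, those of Mcm3, Mcm5, Mcm6 and Mcm7, against 2.26% of all windows. CCAAT was frequent in both sets, in 22 of 24 mitotic and 9 of 10 replication windows, against 37.4% of all. The windows below are those of the 4 mitotic members called for a change between the days in their SWCNT difference, and of 2 helicase subunits that were not. Each window shown holds TTTGAA or the E2F letters. Windows that hold neither, among them those of Nusap1, Birc5, Pcna and Rrm2, are not shown. Capitals mark a match to any of the 3 motifs on either strand, and in the Cdca8 window 1 TTTGAA match and 1 CCAAT match share bases. A match describes letters and does not show that a factor binds.
Cdca8, chr4:124936868-124937167, minus strand: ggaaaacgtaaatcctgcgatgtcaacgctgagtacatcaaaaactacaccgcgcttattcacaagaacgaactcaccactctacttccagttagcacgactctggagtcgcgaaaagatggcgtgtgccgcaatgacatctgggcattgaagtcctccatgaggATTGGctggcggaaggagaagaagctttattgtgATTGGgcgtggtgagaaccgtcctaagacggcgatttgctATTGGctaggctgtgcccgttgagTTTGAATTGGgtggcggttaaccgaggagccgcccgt
Cdc20, chr4:118437294-118437593, minus strand: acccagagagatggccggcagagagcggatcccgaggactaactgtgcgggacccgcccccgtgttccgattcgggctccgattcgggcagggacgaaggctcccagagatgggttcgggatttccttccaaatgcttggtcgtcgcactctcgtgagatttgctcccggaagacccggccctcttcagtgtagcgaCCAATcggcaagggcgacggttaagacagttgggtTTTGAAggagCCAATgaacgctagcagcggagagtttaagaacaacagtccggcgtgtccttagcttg
Kif22, chr7:127042371-127042670, minus strand: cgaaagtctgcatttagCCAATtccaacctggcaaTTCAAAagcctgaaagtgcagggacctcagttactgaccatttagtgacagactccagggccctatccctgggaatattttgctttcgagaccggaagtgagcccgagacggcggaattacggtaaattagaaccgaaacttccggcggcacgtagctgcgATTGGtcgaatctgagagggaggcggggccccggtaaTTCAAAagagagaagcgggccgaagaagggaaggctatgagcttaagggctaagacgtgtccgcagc
Mki67, chr7:135716330-135716629, minus strand: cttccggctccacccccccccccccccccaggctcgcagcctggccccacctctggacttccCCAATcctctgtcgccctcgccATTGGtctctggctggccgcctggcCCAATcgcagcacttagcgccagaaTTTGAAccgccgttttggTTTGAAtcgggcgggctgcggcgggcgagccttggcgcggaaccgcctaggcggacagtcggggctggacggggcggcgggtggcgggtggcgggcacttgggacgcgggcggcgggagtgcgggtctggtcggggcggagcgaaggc
Mcm5, chr8:75109259-75109558, plus strand: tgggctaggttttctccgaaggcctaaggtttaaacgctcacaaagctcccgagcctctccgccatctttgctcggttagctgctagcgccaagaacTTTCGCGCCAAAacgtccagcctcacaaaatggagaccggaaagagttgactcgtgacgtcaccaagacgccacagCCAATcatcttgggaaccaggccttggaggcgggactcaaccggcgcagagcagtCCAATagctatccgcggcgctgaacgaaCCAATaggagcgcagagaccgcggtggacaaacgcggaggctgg
Mcm6, chr1:128359656-128359955, minus strand: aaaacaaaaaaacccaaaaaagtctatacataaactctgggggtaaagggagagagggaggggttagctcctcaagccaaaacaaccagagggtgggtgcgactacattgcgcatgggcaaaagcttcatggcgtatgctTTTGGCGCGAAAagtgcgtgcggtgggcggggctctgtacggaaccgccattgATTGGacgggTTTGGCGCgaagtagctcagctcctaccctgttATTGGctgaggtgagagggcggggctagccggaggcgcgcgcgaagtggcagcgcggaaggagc

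The tissue label was borne out by its markers: 7 of 7 tested alveolar type 2 genes, 6 of 6 alveolar type 1 genes and 8 of 8 endothelial genes lay at or above the array median on all 8 arrays. The SWCNT arrays of day 1 stood apart by transcripts of other tissues. All 12 striated muscle genes were higher there than on the PF68 arrays of day 1, 10 of them called, and the mean log2 signal of the list was 3.29 to 3.35 against -0.67 to -0.53. For 7 tested squamous epithelium genes the ranges were 1.53 to 1.57 against -1.82 to -1.33, with 4 called higher. For 5 tested adipose genes they were 3.23 to 3.25 against 1.18 to 1.38, with 3 called higher. Of all genes, 0.931% were called higher in this comparison. The 3′ minus 5′ signal of the actin control probe sets, a measure of RNA length and labelling, averaged 2.02 and 1.34 in the PF68 and SWCNT arrays of day 1, and 3.27 and 2.97 in those of day 7. The part of these differences in the results below was not tested.

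Levels differed between the sets in how many members were well measured. All 9 tested replication members, but 6 of 19 tested mitotic members (Ccna2, Cdc20, Kif22, Mki67, Top2a and Cenpa), lay at or above the array median of -0.63 on all 8 arrays. Bub1b and Ect2 did so on 3 arrays, and Cdca8 and Cdca3 on 4, namely both PF68 arrays of day 1 and both SWCNT arrays of day 7. A member that passes through the groups where it is high is bound to differ between groups, so counts over the tested members describe those members and are no measure of all 36. The 7 members with a probe set that stayed dim, below the median on at least 7 arrays, were the checkpoint kinases Bub1 and Ttk, the kinase Aurkb, the motors Kif11, Kif20a and Cenpe, and the thymidylate synthase Tyms.

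On average the mitotic members were high on PF68 day 1, low on SWCNT day 1 and PF68 day 7, and high on SWCNT day 7, but not every member followed this order. With each member taken relative to its own mean over the 8 arrays, the 19 mitotic members averaged 0.36 and 0.38 on the PF68 arrays of day 1 and -0.17 and -0.30 on the SWCNT arrays of day 1. On day 7 the averages were -0.43 and -0.65 with PF68 and 0.45 and 0.35 with SWCNT. The arrays of a group thus lay side by side, and no PF68 array overlapped a SWCNT array of its day. On the PF68 arrays of day 1, 19 and 17 of the 19 were above their own means, on the SWCNT arrays of day 1 it was 7 and 6, on the PF68 arrays of day 7 it was 2 on each, and on the SWCNT arrays of day 7 it was 18 and 17. Among the exceptions, Top2a and Nusap1 lay above their own means on SWCNT day 1, Ccna2 was no higher with SWCNT than with PF68 on day 7, and Plk1 was lower on SWCNT day 7 than on SWCNT day 1. The 9 replication members stayed nearer to their means, at 0.13 and 0.059, then -0.18 and 0.015, then -0.067 and -0.091, and last 0.056 and 0.077 in the same order of groups. Their SWCNT arrays of day 1 differed from each other more than any other pair of these averages within a group.

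**Figure D1:**
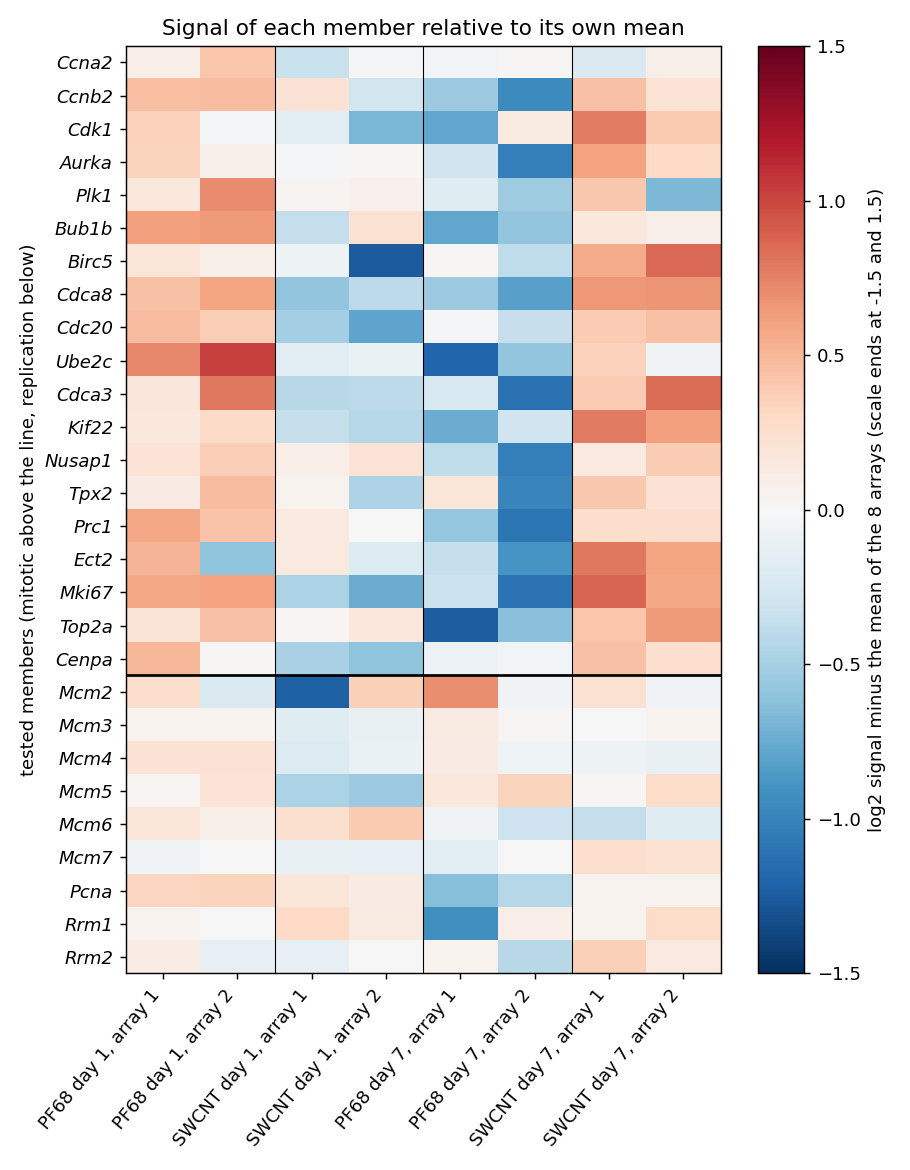
Heat map of the log2 signal of each tested member minus its own mean over the 8 arrays, with the 8 arrays in columns by group and 19 mitotic members above the line and 9 replication members below it. Most mitotic rows are above their mean on the PF68 arrays of day 1 and the SWCNT arrays of day 7 and below it on the PF68 arrays of day 7.

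**Figure D2:**
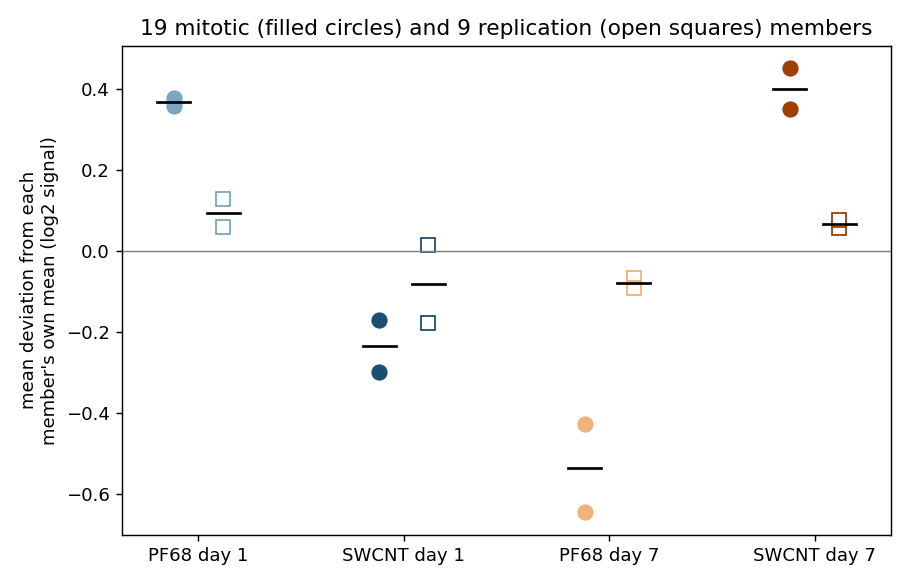
Mean deviation of the members from their own means (log2 signal) on each of the 8 arrays, by group; filled circles are 19 mitotic and open squares 9 replication members. The mitotic circles lie between 0.35 and 0.45 on the PF68 arrays of day 1 and the SWCNT arrays of day 7, and between -0.65 and -0.17 on the other arrays.

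On day 1, Cdca8 and Cdc20 fell with SWCNT. Cdca8 encodes borealin, a subunit of the chromosomal passenger complex, and Cdc20 encodes the activator of the anaphase-promoting complex. These 2 of 19 tested mitotic members and none of 9 replication members were called lower at an adjusted p of 0.05, and none was called higher, against 1.23% of all genes called lower and 0.931% called higher. With no filter on low values no member was called on day 1, while 0.676% of all genes were. The question of this comparison is the acute response to the nanotubes. In whole lung RNA, fewer dividing cells and less of a transcript per cell cannot be told apart. The SWCNT arrays of day 1 also held the striated muscle, squamous epithelium and adipose transcripts described above. Their part in these falls was not tested.

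Cdca8 read 0.025 and 0.18 on the PF68 arrays of day 1, -1.01 and -0.80 on the SWCNT arrays of day 1, -0.96 and -1.22 on the PF68 arrays of day 7, and 0.24 and 0.25 on the SWCNT arrays of day 7. Both SWCNT arrays of day 1 lay below both PF68 arrays, a difference of -1.01 ± 0.15 (SE), adjusted p = 0.0373. Its probe set passed the filter only through PF68 day 1 and SWCNT day 7, the groups where it was high. Another Cdca8 probe set, 1428481_s_at, also reached the median on 4 arrays and had differences of 0.16 on day 1 and 1.54 on day 7. A further one, 1428480_at, reached it on 1 array and had -0.68 and 1.14. Cdc20 read 2.11 and 2.004 on the PF68 arrays of day 1, 1.13 and 0.84 on the SWCNT arrays of day 1, 1.63 and 1.29 on the PF68 arrays of day 7, and 2.02 and 2.08 on the SWCNT arrays of day 7. The day 1 groups did not overlap, and the difference was -1.07 ± 0.16 (SE), adjusted p = 0.0426.

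Other mitotic members had differences of similar size that did not pass the test. Mki67, whose protein Ki-67 coats mitotic chromosomes and marks cycling cells, read 1.49 and 1.51 on the PF68 arrays of day 1, 0.44 and 0.17 on the SWCNT arrays of day 1, 0.59 and -0.19 on the PF68 arrays of day 7, and 1.79 and 1.49 on the SWCNT arrays of day 7. Its SWCNT arrays of day 1 lay well below its PF68 arrays, at -1.20 ± 0.28 (SE), adjusted p = 0.102. Ube2c, the ubiquitin-conjugating enzyme of the anaphase-promoting complex, read 0.91 and 1.21 on the PF68 arrays of day 1, 0.023 and 0.080 on the SWCNT arrays of day 1, -1.001 and -0.41 on the PF68 arrays of day 7, and 0.53 and 0.14 on the SWCNT arrays of day 7. Its day 1 difference was -1.005 ± 0.25 (SE), adjusted p = 0.119, again with no overlap of the groups. For Cenpa, the histone H3 variant of centromeres, the values were 0.89 and 0.42 on the PF68 arrays of day 1, -0.093 and -0.20 on the SWCNT arrays of day 1, 0.31 and 0.36 on the PF68 arrays of day 7, and 0.84 and 0.65 on the SWCNT arrays of day 7. The day 1 arrays of Cenpa did not overlap either, at -0.80 ± 0.18 (SE), adjusted p = 0.0976. Birc5, or survivin, a partner of borealin in the passenger complex, read 0.23 and 0.14 on the PF68 arrays of day 1, -0.026 and -1.19 on the SWCNT arrays of day 1, 0.074 and -0.33 on the PF68 arrays of day 7, and 0.61 and 0.90 on the SWCNT arrays of day 7. Its 2 SWCNT arrays of day 1 were far apart, which gave -0.79 ± 0.39 (SE), adjusted p = 0.343.

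As a set, 18 of 19 tested mitotic members had a day 1 difference below 0, and in the same number the SWCNT arrays lay below both PF68 arrays without overlap, a pattern that 28.6% of all genes showed. Of the dim mitotic members left out by the filter, only Ttk showed it. Ect2, the exchange factor that starts cytokinesis, was the exception, at 0.021. The median difference was -0.59 for the mitotic members, against -0.020 over all genes. By role, the median was -1.005 for the 3 members of the anaphase-promoting complex group (Cdc20, Ube2c and Cdca3), -0.80 for the 3 chromosome proteins, -0.49 for cyclins and Cdk1 and -0.28 for the 4 spindle and cytokinesis members. The replication members had a median of -0.17, with 7 of 9 below 0. Of these 9, 5 lay lower without overlap, and 2, Mcm6 and Rrm1, lay higher without overlap. Without any 1 of the 8 arrays, 0 or 1 member was called on day 1, and without probe sets whose names end in _x_at or _s_at, which can bind related transcripts, none was. Both called members are read by such probe sets.

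On day 7, Cdca8, Kif22 and Top2a rose with SWCNT. Kif22 encodes a chromosome-bound kinesin that pushes chromosome arms away from the spindle poles, and Top2a the topoisomerase that disentangles replicated chromosomes. These 3 of 19 tested mitotic members were called higher, none lower, and none of the 9 replication members was called, against 1.40% of all genes called higher and 0.78% called lower. With no filter on low values no member was called on day 7, while 0.132% of all genes were. This comparison addresses the sub-chronic response to the nanotubes.

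Cdca8 differed by 1.33 ± 0.15 (SE), adjusted p = 0.0249, with the array values given above. Kif22 read 1.02 and 1.16 on the PF68 arrays of day 1, 0.51 and 0.44 on the SWCNT arrays of day 1, 0.12 and 0.57 on the PF68 arrays of day 7, and 1.65 and 1.48 on the SWCNT arrays of day 7. Both SWCNT arrays of day 7 were above every other array of the gene, and the day 7 difference was 1.22 ± 0.17 (SE), adjusted p = 0.0395. Top2a read 0.89 and 1.14 on the PF68 arrays of day 1, 0.73 and 0.87 on the SWCNT arrays of day 1, -0.54 and 0.071 on the PF68 arrays of day 7, and 1.12 and 1.35 on the SWCNT arrays of day 7. Its PF68 arrays of day 7 were the 2 lowest of the 8, and the difference was 1.46 ± 0.23 (SE), adjusted p = 0.0455. Without any 1 of the 8 arrays, none of the 3 remained called.

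Mki67 had a difference as large as those of the called members but a wider spread between its PF68 arrays of day 7, at 1.44 ± 0.28 (SE), adjusted p = 0.0612. Prc1, which bundles the central spindle, read 0.32 and 0.16 on the PF68 arrays of day 1, -0.12 and -0.26 on the SWCNT arrays of day 1, -0.84 and -1.36 on the PF68 arrays of day 7, and -0.0038 and -0.0023 on the SWCNT arrays of day 7. The 2 SWCNT arrays of day 7 lay close together and above both PF68 arrays, at 1.10 ± 0.19 (SE), adjusted p = 0.0518. Ccnb2, a mitotic cyclin that activates Cdk1, read 0.26 and 0.28 on the PF68 arrays of day 1, 0.028 and -0.46 on the SWCNT arrays of day 1, -0.73 and -1.14 on the PF68 arrays of day 7, and 0.25 and 0.012 on the SWCNT arrays of day 7. Its day 7 groups did not overlap, at 1.07 ± 0.22 (SE), adjusted p = 0.0681. Ect2 and Cdca3, a factor that promotes mitotic entry, had differences of 1.31 and 1.29 with adjusted p of 0.127 and 0.109.

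Of the 19 tested mitotic members, 18 had a day 7 difference above 0, and in 17 the SWCNT arrays lay above both PF68 arrays, against 28.2% of all genes. Of the dim mitotic members left out by the filter, only Kif20a had SWCNT arrays above both PF68 arrays. Ccna2, the cyclin of S and G2 phase, was the member below 0, at -0.053. The median was 1.04 for the mitotic members and 0.021 for all genes. The replication median was -0.055, with 4 of 9 above 0, 3 without overlap higher and 1 without overlap lower. When the arrays were shifted to equal levels of 18 hybridization spike probe sets, the median of all genes moved to 0.55 on day 7, the mitotic median to 1.57 and the replication median to 0.47, a shift that is the same for every gene. The replication median was then above 0 but still below that of all genes. Under that scaling 24 members were called higher, against 42% of all genes.

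**Figure D3:**
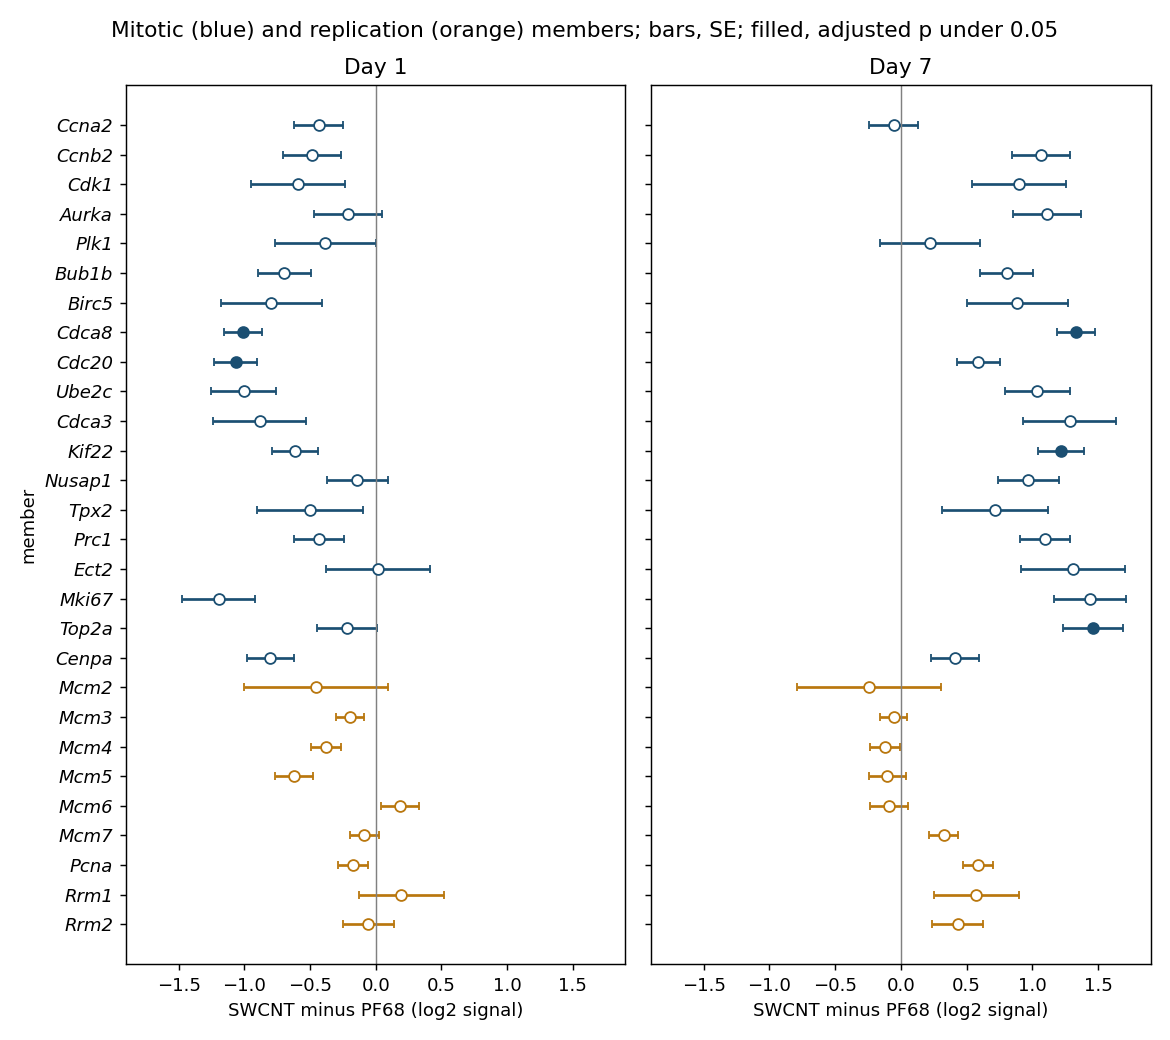
SWCNT minus PF68 differences (log2 signal) of the 28 tested members on day 1 and day 7; points are differences, bars their SE, filled points have an adjusted p under 0.05, blue is mitotic and orange replication. Mitotic points lie mostly left of 0 on day 1 and right of 0 on day 7, and replication points lie between -0.62 and 0.59 on both days.

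The 2 SWCNT minus PF68 comparisons share no array, so their difference could be tested directly. The SWCNT difference of 4 tested mitotic members, Cdca8, Cdc20, Kif22 and Mki67, was higher on day 7 than on day 1, against 1.41% of all genes called in that direction. No member was called lower, against 0.924% of all genes. For Mki67 the change in the difference was 2.63 ± 0.39 (SE), adjusted p = 0.0409. For Cdca8 it was 2.34 ± 0.21 (SE), adjusted p = 0.0147, for Kif22 1.83 ± 0.25 (SE), adjusted p = 0.035, and for Cdc20 1.66 ± 0.23 (SE), adjusted p = 0.0379. Ube2c and Prc1 came next in adjusted p, at 2.04 ± 0.35 (SE) and 1.53 ± 0.27 (SE) with adjusted p of 0.0506 and 0.0518.

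In 16 of 19 tested mitotic members (84.2%) the SWCNT arrays lay below both PF68 arrays on day 1 and above both on day 7. This order was found in 2 of 9 replication members (22.2%) and in 8.33% of all genes. None of the dim mitotic members left out by the filter showed it. Their SWCNT and PF68 arrays overlapped on both days in Bub1, Aurkb, Kif11 and Cenpe, on day 7 in Ttk and on day 1 in Kif20a. The median change in the difference was 1.53 for the mitotic members, 0.38 for the replication members and 0.052 for all genes, and it was above 0 in 19 of 19 and 8 of 9 members. With no filter on low values, all 25 mitotic members that have a probe set were above 0, with a median of 1.32, and 1 was called. The dim motor Kif20a is among the added members. Of the 4 calls, 3 were on probe sets ending in _x_at or _s_at, and without such probe sets only Mki67 was called. The number called was 3 without the first PF68 array of day 7, 1 without the second, and 0 without any one of the other 6 arrays.

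**Figure D4:**
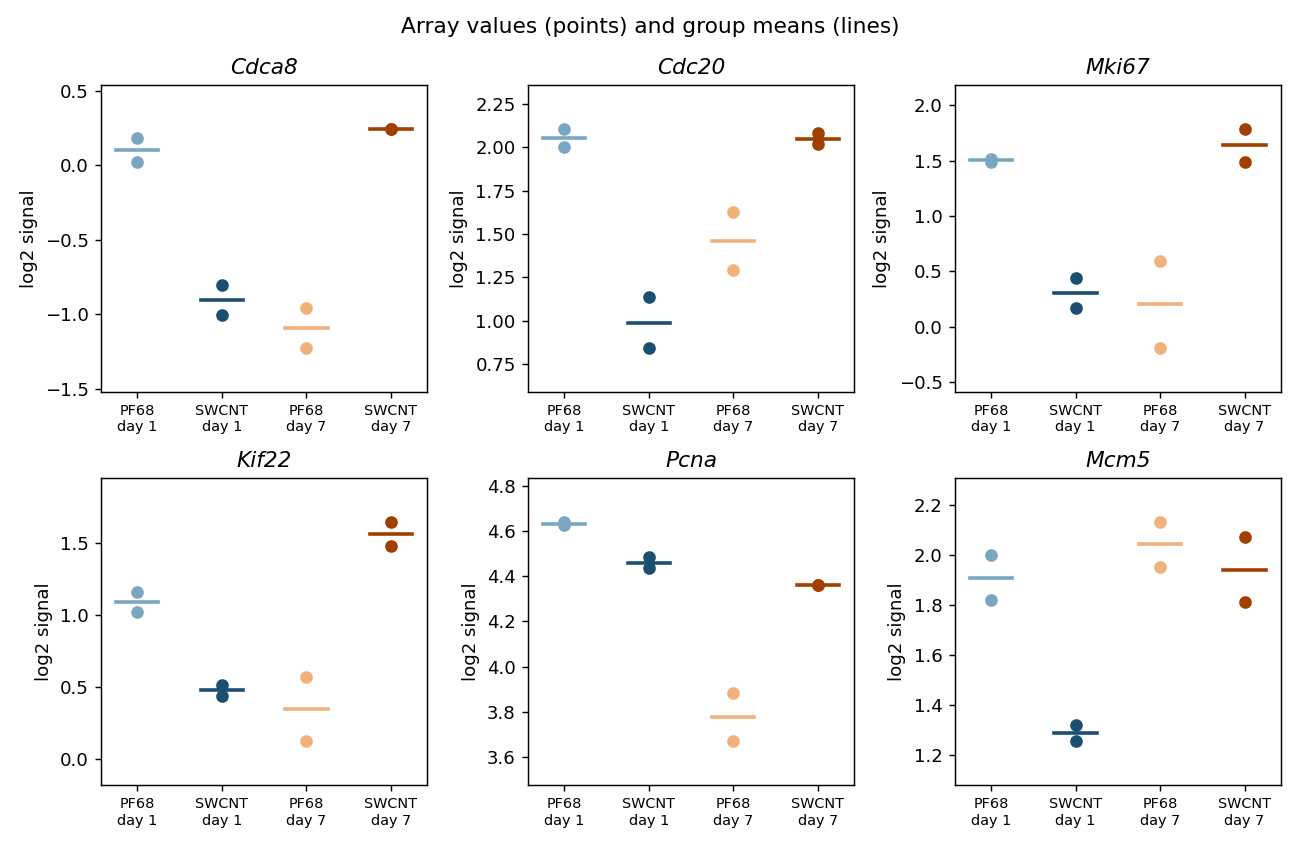
Log2 signal of selected members by group; points are the 2 arrays of each group and short lines the group means. For Cdca8, Cdc20, Mki67 and Kif22 the PF68 arrays of day 1 and the SWCNT arrays of day 7 lie above the other 4 arrays; Pcna is lowest on the PF68 arrays of day 7 and Mcm5 on the SWCNT arrays of day 1.

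Within the solvent groups, 9 of 19 tested mitotic members and 1 of 9 replication members were lower on day 7 than on day 1, and none was higher, against 8.86% of all genes called in either direction taken alone. The mitotic members were Ccnb2, Bub1b, Cdca8, Ube2c, Kif22, Nusap1, Prc1, Mki67 and Top2a, and the replication member was Pcna. Ube2c had the largest fall, -1.76 ± 0.25 (SE), adjusted p = 0.0118. It was followed by Prc1 at -1.34 ± 0.19 (SE), adjusted p = 0.0118, and by Bub1b, the checkpoint kinase-like protein BubR1, at -1.31 ± 0.20 (SE), adjusted p = 0.0144. These PF68 arrays also enter the SWCNT comparisons, so the rise of a member on day 7 with SWCNT and its fall in the solvent share the PF68 arrays of day 7.

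Bub1b read -0.17 and -0.14 on the PF68 arrays of day 1, -1.14 and -0.56 on the SWCNT arrays of day 1, -1.56 and -1.38 on the PF68 arrays of day 7, and -0.63 and -0.70 on the SWCNT arrays of day 7. Its PF68 arrays of day 1 were the highest and those of day 7 the lowest. Nusap1, which links microtubules to chromatin, read 0.19 and 0.36 on the PF68 arrays of day 1, 0.080 and 0.19 on the SWCNT arrays of day 1, -0.40 and -1.05 on the PF68 arrays of day 7, and 0.12 and 0.37 on the SWCNT arrays of day 7. Only its PF68 arrays of day 7 stood apart, with a fall of -0.999 ± 0.23 (SE), adjusted p = 0.0369. Mki67 fell by 1.30, Top2a by 1.25, Ccnb2 by 1.21, Cdca8 by 1.19 and Kif22 by 0.74 on the log2 scale, with adjusted p from 0.00978 to 0.0384. All 19 tested mitotic members were below 0, 16 without overlap of the groups, against 28.6% of all genes. The median was -0.87, against 0.037 over all genes. Without either PF68 array of day 1 no member was called, and of all genes 0 or 30 were.

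In the SWCNT groups most mitotic members were higher on day 7 than on day 1, and 5 passed the test. Cdca8, Cdc20, Kif22, Mki67 and Cenpa rose from day 1 to day 7, and so did the helicase subunit Mcm5 on the probe set that stood for it, against 9.59% of all genes called higher. The helicase subunit Mcm6 fell, against 6.70% of all genes called lower. Mki67 rose by 1.33 ± 0.28 (SE), adjusted p = 0.0289, Cdca8 by 1.15 ± 0.15 (SE), adjusted p = 0.00896 and Cenpa by 0.89 ± 0.18 (SE), adjusted p = 0.0277. Kif22 and Cdc20 rose by 1.09 and 1.06. Birc5 had the largest difference, 1.37 ± 0.39 (SE), adjusted p = 0.0648, and was not called. The mitotic median was 0.51 against 0.089 over all genes, 18 of 19 were above 0, and 14 had no overlap, against 36.6% of all genes. Without either SWCNT array of day 7 no member was called, without the first and second SWCNT arrays of day 1 the number was 2 and 1, and without either PF68 array of day 1 it was 4.

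By group mean, PF68 day 1 was the highest group for 8 and SWCNT day 7 for 11 of the 19 tested mitotic members, and the other groups for none. The lowest group was PF68 day 7 for 14 of them and SWCNT day 1 for 5. The latter were Ccna2, Cdk1, Birc5, Cdc20 and Cenpa. Cdk1, the kinase that drives entry into mitosis, had group means of 0.31, -0.28, -0.17 and 0.73 in the order PF68 day 1, SWCNT day 1, PF68 day 7 and SWCNT day 7. For the spindle kinases the means were -0.34, -0.55, -1.21 and -0.095 for Aurka. They were -0.053, -0.44, -0.85 and -0.62 for Plk1, whose SWCNT arrays of day 7 read -0.084 and -1.16. For Tpx2, the spindle factor that activates Aurka, they were -0.42, -0.91, -1.12 and -0.40. None of these 4 members was called in any comparison.

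Among the replication members, no subunit of the MCM helicase, the ring of 6 proteins that unwinds DNA, was called for SWCNT on either day. By limma, 2 of the 9 replication members had an unadjusted p under 0.05 on day 1 and 2 on day 7, against 18.6% and 23.1% of all genes. Mcm5 read 1.82 and 1.999 on the PF68 arrays of day 1, 1.32 and 1.25 on the SWCNT arrays of day 1, 1.95 and 2.13 on the PF68 arrays of day 7, and 1.81 and 2.07 on the SWCNT arrays of day 7. Its 2 SWCNT arrays of day 1 were below all other arrays, with a day 1 difference of -0.62 ± 0.14 (SE), adjusted p = 0.103, and it rose from day 1 to day 7 in the SWCNT groups by 0.65 ± 0.14 (SE), adjusted p = 0.0345. These values are from 1436808_x_at. Another Mcm5 probe set, 1415945_at, at or above the median on all 8 arrays, had -0.069 on day 1 and -0.25 between the SWCNT days. Mcm6 read 2.36 and 2.27 on the PF68 arrays of day 1, 2.42 and 2.58 on the SWCNT arrays of day 1, 2.13 and 1.87 on the PF68 arrays of day 7, and 1.82 and 1.997 on the SWCNT arrays of day 7. Its day 1 arrays lay above its day 7 arrays under both treatments, and its fall in the SWCNT groups was -0.59 ± 0.14 (SE), adjusted p = 0.0447. Mcm4 read 2.06 and 2.06 on the PF68 arrays of day 1, 1.63 and 1.74 on the SWCNT arrays of day 1, 1.96 and 1.78 on the PF68 arrays of day 7, and 1.76 and 1.74 on the SWCNT arrays of day 7. Both PF68 arrays of day 1 were its highest, and its day 1 difference of -0.37 ± 0.11 (SE), adjusted p = 0.168 was not called.

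Mcm2 read 1.88 and 1.39 on the PF68 arrays of day 1, 0.39 and 1.97 on the SWCNT arrays of day 1, 2.32 and 1.56 on the PF68 arrays of day 7, and 1.84 and 1.56 on the SWCNT arrays of day 7. Its first SWCNT array of day 1 stood alone at the low end, and without that array the day 1 difference changed from -0.45 to 0.34. Mcm3 and Mcm7 had day 1 differences of -0.19 and -0.085 and day 7 differences of -0.055 and 0.33, none called. The 6 helicase members had a median of -0.28 on day 1 and -0.095 on day 7.

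Pcna, the sliding clamp that tethers DNA polymerases, shared part of the mitotic profile. It read 4.63 and 4.64 on the PF68 arrays of day 1, 4.48 and 4.44 on the SWCNT arrays of day 1, 3.67 and 3.88 on the PF68 arrays of day 7, and 4.36 and 4.36 on the SWCNT arrays of day 7. Its PF68 arrays of day 7 were the lowest, with a fall in the solvent groups of -0.86 ± 0.12 (SE), adjusted p = 0.0109. The day 7 difference with SWCNT was 0.59 ± 0.12 (SE), adjusted p = 0.0636, and on day 1 it was -0.17. Rrm1, the large subunit of ribonucleotide reductase, read 1.94 and 1.89 on the PF68 arrays of day 1, 2.19 and 2.02 on the SWCNT arrays of day 1, 0.98 and 1.99 on the PF68 arrays of day 7, and 1.95 and 2.17 on the SWCNT arrays of day 7. Its first PF68 array of day 7 stood alone at the low end, and without it the difference between the solvent days changed from -0.43 to 0.077. Rrm2, the small subunit, which is made in S phase, read 1.37 and 1.12 on the PF68 arrays of day 1, 1.13 and 1.25 on the SWCNT arrays of day 1, 1.30 and 0.84 on the PF68 arrays of day 7, and 1.61 and 1.40 on the SWCNT arrays of day 7. Its groups lay close together, with differences of -0.055 on day 1 and 0.43 on day 7.

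The choice of probe set changed values in both sets. Probe sets ending in _x_at or _s_at stood for 5 of 9 tested replication members (Mcm2, Mcm3, Mcm5, Mcm7 and Rrm2) and for 4 of 19 mitotic members (Cdc20, Cdca8, Kif22 and Prc1). Another probe set of Rrm2, 1448226_at, read 0.75 and 0.64 on the PF68 arrays of day 1, 0.22 and -0.53 on the SWCNT arrays of day 1, -0.54 and -1.36 on the PF68 arrays of day 7, and 0.064 and 0.41 on the SWCNT arrays of day 7. This is the order of groups of the mitotic members, with differences of -0.85 on day 1, 1.19 on day 7 and -1.64 between the solvent days, the last with an adjusted p of 0.0329 in a fit without the _x_at and _s_at probe sets. In that fit Mcm2, on 1448777_at, also fell between the solvent days, by -1.03 ± 0.18 (SE), adjusted p = 0.0192, whereas its main probe set had 0.30. Kif22 went the other way. Its 1423813_at, which reached the median on 2 arrays, had differences of 0.99 on day 1, 0.12 on day 7 and -0.87 for the change between them.

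For Cdc20, 1416664_at had -0.46 on day 1 and 0.60 on day 7, the signs of the main probe set, while a further probe set, 1439394_x_at, had -0.18 and -1.18. Over the fit without _x_at and _s_at probe sets, 26 members were tested among 13451 genes. The mitotic medians were -0.49 on day 1, 0.90 on day 7 and 1.32 for the change in the difference, and the replication medians -0.069, 0.28 and 0.25. In it, 9 members were called lower between the solvent days, 6 mitotic and 3 replication, against 9.23% of all genes. Top2a alone was called on day 7, against 1.13% of all genes called higher, Mki67 alone for the change in the difference, against 0.974%, and no member on day 1, against 0.959% of all genes called lower. The 27 further probe sets of mitotic members, most of them dim, had a day 7 median of 0.013 and the 20 of replication members 0.20. Of these 27, the 8 that passed the filter, from 6 genes, had a median of -0.33 on day 7, with 3 of 8 above 0, and of -0.11 on day 1, with 5 of 8 below 0. Their day 7 median thus did not share the sign of the mitotic median. The 3 above 0 belonged to Cdca8, Cdc20 and Kif22 and had the sign of the probe sets that stood for these genes. So did that of Ccna2, at -0.22. The 13 of replication members that passed had medians of 0.25 on day 7 and -0.020 on day 1.

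**Figure D5:**
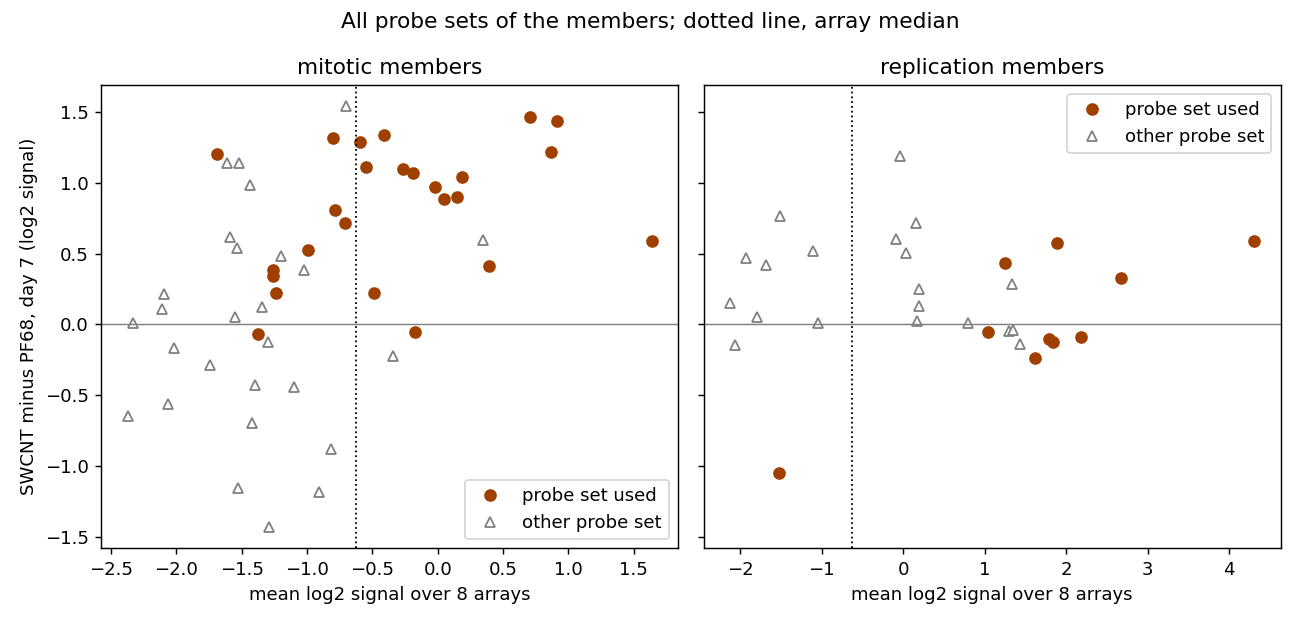
Day 7 SWCNT minus PF68 difference (log2 signal) against the mean log2 signal of each probe set of the members, mitotic and replication in separate panels; filled symbols are the probe sets used, open symbols the others, and the dotted line is the array median of -0.63. Most open mitotic symbols lie left of the median and spread around 0.

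Further genes of the same pathways were read from lists beside the members. Of 44 further replication genes 40 were tested. On day 1 the histone chaperone Asf1b fell with SWCNT, -1.03 ± 0.17 (SE), adjusted p = 0.0476, and on day 7 the flap endonuclease Fen1 fell, -1.05 ± 0.13 (SE), adjusted p = 0.0311. No other was called, against 1.23% of all genes called lower on day 1 and 0.78% on day 7. The medians were -0.18 and 0.24. From day 1 to day 7 in the SWCNT groups, 7 rose and 1 fell, against 9.59% and 6.70% of all genes, among them Clspn, a replication checkpoint adaptor, by 1.02, the maintenance methyltransferase Dnmt1 by 1.003, and the origin kinase Cdc7 by 0.98. In the solvent groups Fen1 rose by 1.10, and Asf1b and the primase subunit Prim2 fell, by 0.99 and 0.48 on the log2 scale. There 8.86% of all genes were called in each direction.

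Of 47 further mitotic genes 36 were tested, and their medians were nearer to 0 than those of the 19 members, at -0.12 on day 1 and 0.26 on day 7. Pttg1, or securin, fell on day 1, -0.89 ± 0.11 (SE), adjusted p = 0.0243, against 1.23% of all genes called lower. The checkpoint protein Mad2l1 and the midbody protein Cep55 rose on day 7, at 1.11 ± 0.13 (SE), adjusted p = 0.0268 and 1.02 ± 0.14 (SE), adjusted p = 0.0375. Of all genes, 1.40% were called higher on that day. Between the solvent days 5 fell and 2 rose, against 8.86% of all genes in each direction, with a median of -0.067. Mad2l1, Cep55, Nek2, the condensin II subunit Ncapg2 and the cytokinesis scaffold Anln fell, the last by -1.24 ± 0.14 (SE), adjusted p = 0.00885. The checkpoint protein Bub3 rose by 0.47 ± 0.100 (SE), adjusted p = 0.029, and Pttg1 rose by 0.56 ± 0.11 (SE), adjusted p = 0.0247. In the SWCNT groups 5 rose from day 1 to day 7, against 9.59% of all genes, and none fell, against 6.70%. They were led by the Cdk-binding subunit Cks2 at 1.40 ± 0.16 (SE), adjusted p = 0.00756 and Pttg1 at 1.27 ± 0.11 (SE), adjusted p = 0.00622.

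Upstream genes of the cycle were read from 2 lists. Of 25 G1/S regulators 21 were tested, and none was called on day 1 by limma (2 had an unadjusted p under 0.05, against 18.6% of all genes). E2f2 fell on day 7, -0.96 ± 0.16 (SE), adjusted p = 0.049, against 0.78% of all genes called lower. On that day 6 of the 21 had an unadjusted p under 0.05, against 23.1% of all genes. In the solvent groups the S phase cyclin Ccne1, E2f1 and Cdk6 rose from day 1 to day 7, by 1.42, 1.13 and 1.06 on the log2 scale. In the same groups Rbl1, which encodes the pocket protein p107, and the E2F partners Tfdp2 and Tfdp1 fell, by 0.70, 0.58 and 0.50. Of all genes, 8.86% were called in each direction there, and the median of the list was -0.12. Of 19 inhibitors of cyclin-dependent kinases and p53 targets 16 were tested, and none was called for SWCNT on either day by limma, with an unadjusted p under 0.05 in 4 on day 1 and 2 on day 7, against 18.6% and 23.1% of all genes. Of the list 4 fell and none rose between the solvent days, against 8.86% of all genes in each direction. Between the SWCNT days 3 fell and 1 rose, against 6.70% and 9.59% of all genes. Cdkn1a, which encodes the inhibitor p21, fell from day 1 to day 7 both in the solvent groups, -0.92 ± 0.15 (SE), adjusted p = 0.016, and in the SWCNT groups, -0.89 ± 0.15 (SE), adjusted p = 0.0172.

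Markers of cells that could carry these transcripts differed as well. On day 1 the medians were -0.59 over 8 tested T cell genes, -0.88 over 8 NK cell genes and -0.34 over 9 monocyte and macrophage genes. Each of these lists had 1 or 2 genes called lower, against 1.23% of all genes. The day 1 median was 0.25 over 8 fibroblast genes, with 7 above 0 and 2 called higher, against 0.931% of all genes. It was 0.037 over 9 alveolar macrophage genes, with 1 called lower, -0.085 over 8 endothelial genes and 0.20 over 7 alveolar type 2 genes. For 6 B cell genes it was -0.44, with 4 below 0 and none called. The mean log2 signal of the T cell list was 0.31 to 0.33 on the PF68 arrays and -0.37 on both SWCNT arrays, and of the NK list 0.53 to 0.62 against -0.38 to -0.22. On day 7 the T cell median was 0.031 and the NK median -0.43. Medians of the monocyte and macrophage, endothelial and alveolar type 2 lists were 0.24, -0.23 and 0.061, with 1, 0 and 1 called higher. The 9 alveolar macrophage genes had a median of 0.55 and the 8 fibroblast genes 0.45, with 1 and 4 called higher. Of all genes, 1.40% were called higher on day 7. The alveolar macrophage list ran at 3.32 to 3.35 on the SWCNT arrays of day 7 against 2.86 to 2.90 on the PF68 arrays, and the fibroblast list at 3.31 to 3.36 against 2.79 to 2.89. Neutrophil genes, which come from cells that no longer divide, had a day 7 median of -1.14, with 4 of 8 called lower, against 0.78% of all genes. Between the solvent days the fibroblast median was -0.89, with 6 of 8 called lower, against 8.86% of all genes. The T cell, B cell, NK, monocyte and macrophage, alveolar macrophage, endothelial and alveolar type 2 medians were -0.11, 0.28, -0.50, -0.41, 0.077, -0.19 and -0.11. Each of these lists had at most 2 genes called lower, and 3 alveolar macrophage genes and 1 alveolar type 2 gene were called higher. The part of these cell types in the members' values was not tested.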

How the data were processed

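Total RNA of right lung lobe 1 was biotin-labelled and hybridized to 8 single-colour Affymetrix arrays, per the labels' protocols. The deposited table gives 1 value per probe set and array, taken here as log2 signal; the submitters' processing notes name RMA and no version. Which log base was used, and why the array median is -0.63, is not given in the sources used here. Another base would multiply every difference by 1 factor and leave directions and calls as they are. All arrays held the same sorted values, so levels are relative to the array. Precision is limited by the number of arrays.

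Of 45101 probe sets, 64 controls and 8 with a missing value were left out, and genes were named from the platform annotation (34939 usable probe sets with 1 symbol, 931 with several, 9159 not listed). A probe set was kept if 2 or more of the 8 arrays reached their median signal in it, and a gene was read by its kept probe set with the highest mean. Using R 4.3.3, the 4 group means were fitted over all 8 arrays by limma 3.58.1, whose lmFit left 4 residual and whose eBayes added 1.81 prior degrees of freedom, with Benjamini-Hochberg adjustment over 13854 genes and a threshold of 0.05; SE is eBayes-moderated. The script was tested on simulated data. An exact permutation test of 2 arrays against 2 cannot go below p = 0.333 (two-sided) and was not used.

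Per-array values are given for members called in any comparison and for the 3 mitotic and 3 replication members with the largest difference in each comparison of 2 groups; some others were named after their values were seen. From each pathway list up to 4 called genes with the largest differences are named. The members and all lists were chosen with earlier results of these data known. Replicate numbers are shared between groups as numbers only: deviations of same-numbered arrays correlated between -0.0061 and 0.011. Alternatives covered the filter, the probe set, scaling, eBayes settings, array weights, the replicate block, the arrays fitted and each array left out. A group of 1 array then borrows the spread of the others.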

Additional observations from a re-analysis of the deposited data

Results flagged for a closer look

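For 4 members a change of the SWCNT minus PF68 difference between day 1 and day 7 was called, by the test of the difference itself in limma over all 8 arrays. The change, day 7 minus day 1, was 2.63 for Mki67, 2.34 for Cdca8, 1.83 for Kif22 and 1.66 for Cdc20 on the log2 scale, from a difference below 0 on day 1 to one above 0 on day 7 in each. In all 4 the SWCNT arrays lay below both PF68 arrays on day 1 and above both on day 7. Another probe set of Kif22, 1423813_at, gave -0.87. The Cdca8 probe set passed the filter only through PF68 day 1 and SWCNT day 7, the groups where it was high. Another one of Cdca8, 1428481_s_at, had 0.16 on day 1 and 1.54 on day 7. With no filter on low values 1 member was called, and without _x_at and _s_at probe sets only Mki67 was.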

How the results depend on the processing

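Signs of the mitotic medians held in each comparison under every setting run, whereas the number of members called did not. In the order day 1, day 7, PF68 days, SWCNT days and change in the SWCNT difference, 2, 3, 10, 7 and 4 members were called, with medians of -0.59, 1.04, -0.87, 0.51 and 1.53 (mitotic) and -0.17, -0.055, -0.17, 0.17 and 0.38 (replication). With 1 array left out in turn the counts ranged from 0 to 1, 0 to 0, 0 to 9, 0 to 7 and 0 to 3. The mitotic medians then ranged from -0.73 to -0.40, 0.85 to 1.16, -1.22 to -0.72, 0.50 to 0.77 and 1.34 to 1.68, and the replication medians from -0.18 to -0.096, -0.080 to 0.067, -0.19 to -0.075, 0.033 to 0.20 and 0.25 to 0.42. The replicate block, which pairs arrays that share only a number, left 0, 0, 8, 6 and 0 calls, and a fit of only the arrays compared left 0 in each of the first 4. Trend and robust eBayes gave 7 calls on day 7 and 7 for the change, while calling 11.7% and 9.98% of all genes, and array weights 1 on day 7, with 0.736% of all genes. With no filter the counts were 0, 0, 7, 3 and 1, the mitotic medians 0.90 on day 7, -0.74 between PF68 days and 1.32 for the change, and the replication median 0.32 for the change. With the filter on all 8 arrays 4, 5 and 5 members were called in the first 3, while 7.1%, 12% and 33.9% of all genes were, with mitotic medians of -0.71, 0.90, -0.67, 0.98 and 1.67. With the mean of all passing probe sets the counts were 0, 1, 8, 3 and 2, the mitotic medians -0.43 on day 1, 0.90 on day 7 and 1.32 for the change, and the replication medians 0.15 on day 7, -0.023 between SWCNT days and 0.30 for the change. Shifting arrays to equal spikes gave 6, 24, 22, 8 and 24 calls, mitotic medians of -0.81, 1.57, -1.47, 0.66 and 2.27, replication medians of -0.39, 0.47, -0.77, 0.32 and 1.13, and medians of all genes of -0.24, 0.55, -0.56, 0.24 and 0.80. Of all genes it called 101, 5813, 172, 2200 and 6017 higher and 636, 80, 5756, 620 and 110 lower, against 129, 194, 1228, 1329 and 196 higher and 171, 108, 1227, 928 and 128 lower. Without _x_at and _s_at probe sets, a setting chosen after seeing the data, the counts were 0, 1, 9, 3 and 1, the mitotic medians 0.90 on day 7 and 1.32 for the change, and the replication medians -0.069, 0.28, -0.37, -0.099 and 0.25.

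Signs turned for 5 members. Kif22 between PF68 days became 0.20 with the mean of probe sets and 1.15 without _x_at and _s_at probe sets, where its change between days became -0.87. Cdc20 between SWCNT days became -0.011 with the mean of probe sets. Without _x_at and _s_at probe sets Mcm5 and Mcm2 between SWCNT days became -0.25 and -0.35. Without the first SWCNT array of day 1, Mcm2 became 0.34 on day 1 and -0.28 between SWCNT days, and with single arrays left out its values ranged from -1.24 to 0.34 and from -0.28 to 1.31. Without the first PF68 array of day 7 Rrm1 between PF68 days became 0.077, in a range from -0.94 to 0.077. Values not followed turned as well, among them several without _x_at and _s_at probe sets. On day 1 Mcm7 went from -0.085 to 0.45, Mcm3 from -0.19 to 0.27 and Kif22 from -0.61 to 0.99. Mcm2 went from -0.24 to 0.50 on day 7 and from 0.30 to -1.03 between PF68 days. Between SWCNT days Mcm7 went from 0.35 to -0.53. Where another probe set is read the value is that probe set's. Otherwise the cause was not tested. Among single members, 20 values gained and 204 lost a call, and 392 kept direction and side of the threshold. With 2 arrays a group and no background flags, members near or below the array median, among them most mitotic ones, have the least certain levels.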

Other observations

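Among the 7 dim members, values in a fit with no filter on low values (18191 genes) were given no call. Kif20a, a motor of the central spindle, had differences of 1.21 on day 7, adjusted p = 0.206, and -1.34 between the solvent days, adjusted p = 0.0998. Tyms, which makes the thymidylate used for DNA, had -1.05 on day 7 and 1.02 between the solvent days, with adjusted p of 0.394 and 0.317. The kinetochore kinase Bub1 and the kinetochore motor Cenpe had 0.53 and 0.34 on day 7, and Ttk, the kinase Mps1 that starts the spindle checkpoint, had -0.64 on day 1 and -0.068 on day 7. Aurkb, the kinase of the chromosomal passenger complex, and the spindle motor Kif11 had 0.38 and 0.22 on day 7. Of the 7, 5 were above 0 on day 7, all of them mitotic. Ttk and Tyms, the only replication member among the 7, were below 0.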
